A study of Caenorhabditis elegans with 2 samples.

Results

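The MATH and BATH domain genes of C. elegans are the protein-coding genes whose symbol starts with math- or bath- in the annotation of genome build WBcel235 (ce11). There were 73 of them among 19985 protein-coding genes, 37 named math- and 36 named bath-. Positions alone split them into a cluster and the rest. On chromosome II, 48 members formed the longest chain in which neighbouring members lay at most 250 kb apart, from math-45 to math-18 at chrII:1510287-2155220, a span of 645 kb. The other 25 members lay elsewhere, 13 on chromosome II and 12 on chromosomes I, III, IV and V. Each member was scored by the called sites whose summit, the base of highest signal, lay from 500 bp before its start to 500 bp past its 3′ end.

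The sites came from ChIP-seq, in which DNA bound by a protein is precipitated with an antibody and sequenced. The protein was WAGO-9, also called HRDE-1, in whole hermaphrodite young adults of strain YL557, collected 48 h after synchronization as starved L1 larvae. These animals stably express the protein fused at its C-terminus to GFP-FLAG. The sample description names an antibody against GFP, whereas the antibody field reads hrde-1. There was 1 group with 2 biological replicates, all of the tagged strain, and the control was not analysed here, so no contrast between conditions could be made. The deposited data were 4 lists of sites, with 24269 candidates for replicate 1, 30000 for replicate 2, 30000 for the pooled reads, and 1341 pooled candidates that passed the authors' irreproducible discovery rate (IDR) threshold, which asks whether a site recurs between replicates. The scale of the authors' signal value, a score relative to the control, is not stated, so it was used only to rank sites within 1 list. Read depth is unknown, whole animals mix germ line and soma, and a gene without a summit may still be bound below the limit of the lists.

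The MATH domain is a fold that binds short stretches of partner proteins. BATH proteins join it to a BTB domain, through which MATH-BTB proteins bind the cullin CUL-3 and bring substrates to a ubiquitin ligase. Both families are greatly expanded in nematodes, mostly as tandem copies. HRDE-1 is a nuclear Argonaute of the germ line that carries small RNAs to nascent transcripts and is known for inherited silencing, and the tandem families are of interest here as groups of similar neighbouring genes.

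Bases around the summits are shown for members with strong, middling and weak candidates, read 5′ to 3′ on the strand of the gene from the RefSeq genome of WBcel235. Capitals mark coding bases of the annotation. Untranslated exons were left out, so math-33, bath-19 and bath-41, whose strongest summits fell there, are shown by another summit or not at all. The IDR site of bath-42 is given with the bases just past the gene, at chrIII:8161363-8161454 on the minus strand, with the summit at base 42 of the stretch.
bath-42: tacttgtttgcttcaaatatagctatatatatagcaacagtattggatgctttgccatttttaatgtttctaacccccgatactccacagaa
The strongest site of bath-36 lay before its start, at chrV:15187773-15187873 on the plus strand, and had no coding bases within 50 bp of the summit.
bath-36: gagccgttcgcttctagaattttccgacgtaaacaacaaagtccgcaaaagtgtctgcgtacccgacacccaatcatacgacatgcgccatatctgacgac
At bath-15, chrIII:7775234-7775334 on the minus strand, the strongest summit lay at the end of a coding exon.
bath-15: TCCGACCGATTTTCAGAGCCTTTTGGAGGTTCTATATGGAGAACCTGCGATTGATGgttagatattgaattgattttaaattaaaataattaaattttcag
Inside math-33, the stretch chrV:11117367-11117467 on the plus strand holds an intron between coding bases, and its candidate was the strongest of that gene outside the untranslated exon.
math-33: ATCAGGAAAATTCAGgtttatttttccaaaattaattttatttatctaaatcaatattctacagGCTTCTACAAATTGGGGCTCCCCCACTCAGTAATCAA
Between bath-28 and bath-30, which share a summit, the stretch chrII:3345020-3345120 on the minus strand holds no coding base.
bath-28 and bath-30: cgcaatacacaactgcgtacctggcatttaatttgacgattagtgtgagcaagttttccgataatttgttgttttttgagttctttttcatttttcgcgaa
In the chromosome II cluster, the candidates shown are those of bath-47 (chrII:1601525-1601625, plus strand), bath-7 (chrII:1920425-1920525, minus strand) and math-49 (chrII:1955285-1955385, minus strand), the first before the gene and the others in coding sequence. Among the members with a pooled candidate, the lowest value of a gene's strongest signal was that of bath-46 (chrII:1598326-1598426, plus strand), at the start of an intron.
bath-47: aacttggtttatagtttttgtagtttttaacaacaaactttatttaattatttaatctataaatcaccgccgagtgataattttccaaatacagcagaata
bath-7: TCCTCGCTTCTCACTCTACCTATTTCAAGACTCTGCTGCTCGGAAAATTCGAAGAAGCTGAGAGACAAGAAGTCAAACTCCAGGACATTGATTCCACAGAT
math-49: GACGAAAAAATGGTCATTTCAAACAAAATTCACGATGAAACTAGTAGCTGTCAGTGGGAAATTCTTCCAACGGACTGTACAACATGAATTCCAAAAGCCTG
bath-46: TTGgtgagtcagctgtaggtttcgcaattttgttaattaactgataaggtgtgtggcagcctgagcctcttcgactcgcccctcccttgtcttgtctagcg

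Few MATH and BATH genes carried a strong WAGO-9 site, and a smaller share of them than of protein-coding genes at large carried any candidate. An IDR summit lay in the window of 2 members, math-33 and bath-42, which is 2.74% of them (exact 95% interval 0.33 to 9.55%), beside 8.23% of all protein-coding genes. A pooled candidate lay at 29 members, or 39.7% (28.4 to 51.9%), beside 55.7% of all protein-coding genes. The replicate 1 list had a summit at 29 members (39.7%, beside 56.3% of all protein-coding genes) and the replicate 2 list at 24 (32.9%, beside 56.9%). Both replicate lists had one at 18 members (24.7%), beside 44.6% of all protein-coding genes. Over the replicate lists the members' share was 36.3 ± 4.84% and that of all protein-coding genes 56.6 ± 0.42% (SD, n = 2), so the gap was larger than the spread between replicates. No list had a summit at 34 members (46.6%), against 30.1% of all protein-coding genes. These intervals cover counting error only, and neighbouring genes that share a summit are not independent. The members were not drawn as a sample, and no test was made of the difference.

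The low share was mainly that of the chromosome II cluster. A pooled candidate was found at 13 of the 48 cluster members (27.1%, exact 95% interval 15.3 to 41.9%) and at 16 of the 25 members elsewhere (64%, 42.5 to 82%). Replicate 1 gave 13 cluster members (27.1%) and 16 members elsewhere (64%), and replicate 2 gave 9 (18.8%) and 15 (60%). The difference between cluster and elsewhere was therefore -36.9 percentage points in the pooled list and in replicate 1, and -41.2 points in replicate 2, with the cluster lower each time. Both replicate lists had a summit at 5 cluster members (10.4%) and at 13 members elsewhere (52%). No IDR summit lay at a cluster member (0 of 48, exact 95% interval 0 to 7.4%). Both IDR sites were at members elsewhere (2 of 25, 8%, exact 95% interval 0.98 to 26%), a share close to the 8.23% of all protein-coding genes. Outside the cluster, the members' share in the pooled list was above the 55.7% of all protein-coding genes, and in the cluster it was below. The members elsewhere were not alike. The 13 on chromosome II had a pooled candidate at 7 (53.8%) and a summit at 6 (46.2%) in each replicate list, slightly below all protein-coding genes. The 12 on other chromosomes had a pooled candidate at 9 (75%), with 10 in replicate 1 and 9 in replicate 2.

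**Figure D1:**
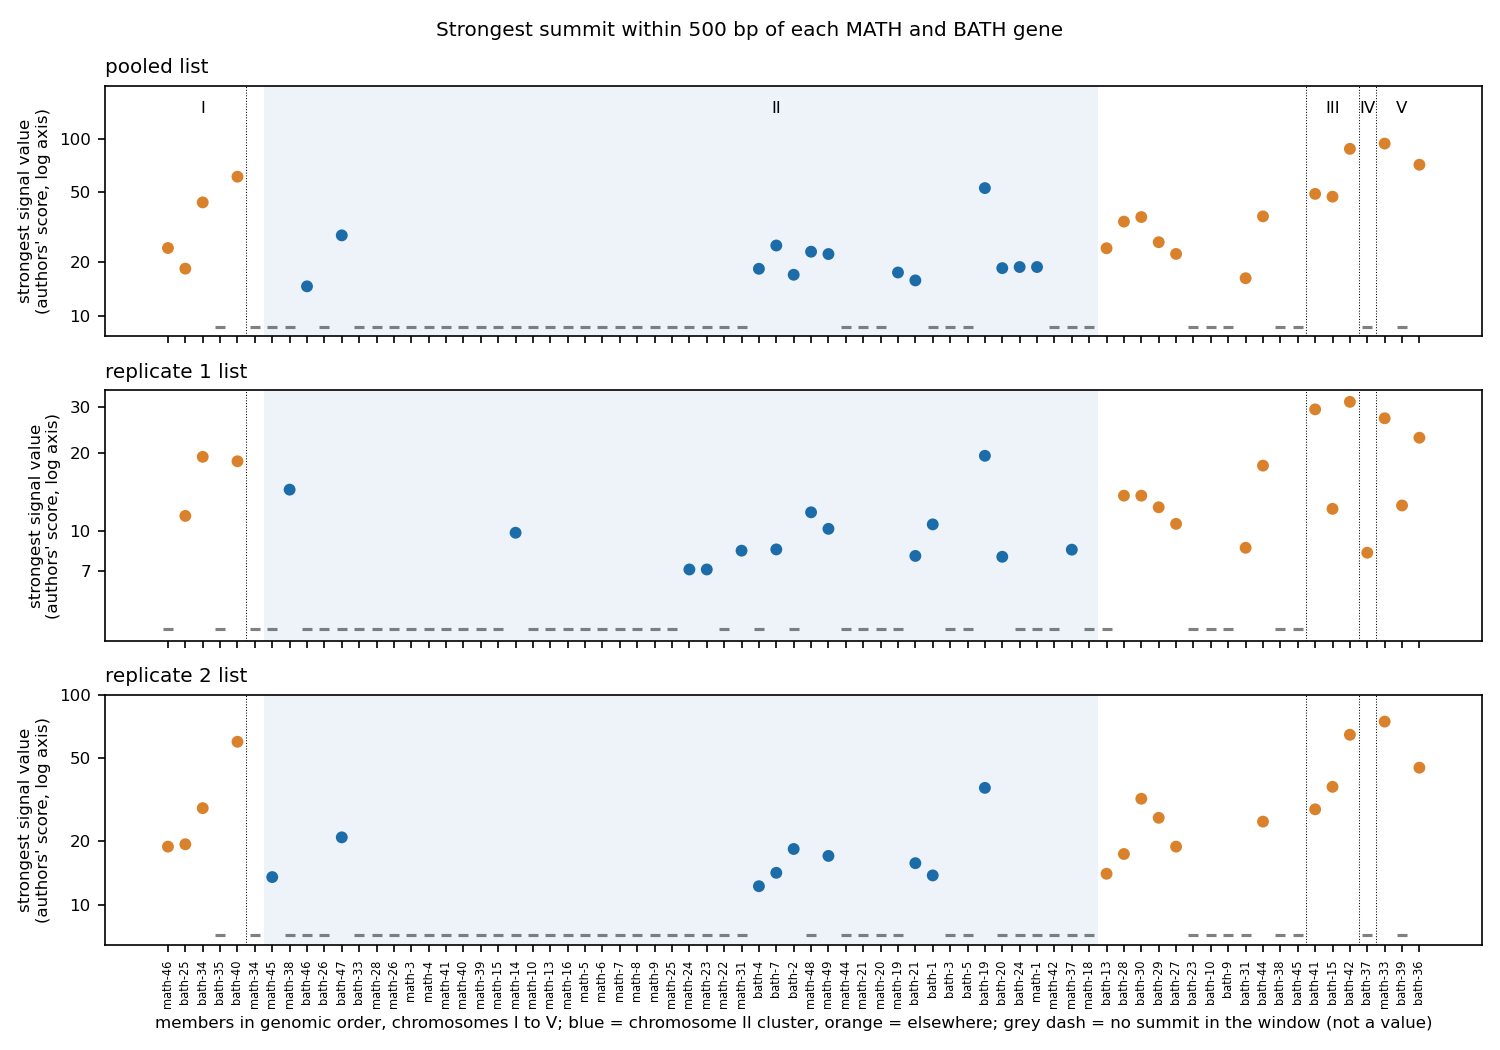
Strongest signal value (the authors' score, log axis) of the summits within 500 bp of each member, in genomic order from chromosome I to V, with 1 panel each for the pooled, replicate 1 and replicate 2 lists. Blue points in the shaded band are cluster members and orange points members elsewhere, and grey dashes mark members with no summit. The run of dashes from math-28 to math-31 is unbroken in the pooled and replicate 2 panels and broken by 4 points in replicate 1, and bath-19 is the highest cluster member in each.

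Within the cluster, the math- and bath- genes differed. A pooled candidate lay at 4 of the 34 math- genes (11.8%, exact 95% interval 3.3 to 27.5%) and at 9 of the 14 bath- genes (64.3%, 35.1 to 87.2%). Replicate 1 had 8 math- and 5 bath- genes with a summit, and replicate 2 had 2 and 7. Over the replicate lists the shares were 14.7 ± 12.5% for math- genes and 42.9 ± 10.1% for bath- genes (SD, n = 2), so math- genes were lower in both lists. The replicate 1 values alone were much closer than those of replicate 2. No list had a summit at 23 of the 34 math- genes and at 4 of the 14 bath- genes. Elsewhere, 14 of 22 bath- genes and 2 of the 3 math- genes had a pooled candidate. The share of bath- genes in the cluster (64.3%) was thus like that of bath- genes elsewhere in the pooled list, whereas the replicate lists, with 15 and 13 of the 22 elsewhere, put the cluster's bath- genes lower.

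Many of the math- genes without a pooled candidate lay in 2 long gaps of the pooled list. Between neighbouring pooled summits at chrII:1819978 and chrII:1917646 lay a gap of 97.7 kb with 18 members, from math-41 to math-31, and 15 other protein-coding genes. It ranked 18 of 29971 gaps between neighbouring pooled summits, whose median was 1.27 kb. The replicate 1 list had 6 summits in this gap, with math-14, math-24, math-23 and math-31 among the genes they lay at, and the replicate 2 list had 1. A second gap, of 68.7 kb from chrII:1732975 to chrII:1801664, held the 4 members math-28, math-26, math-3 and math-4, and ranked 54. The cluster also lay inside the longest stretch without an IDR summit in the nuclear genome, 1128 kb between chrII:1323555 and chrII:2451233, ahead of 914 kb on chromosome V. That stretch had 297 protein-coding genes and 204 pooled candidates, or 181 per Mb against 299 per Mb of the nuclear genome. These values include the cluster span of 645 kb, which had only 61 of the pooled candidates, or 94.6 per Mb.

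The other genes in the same span had a low share too. Of the 148 protein-coding genes in the cluster span that are no members, 26 (17.6%, exact 95% interval 11.8 to 24.7%) had a pooled candidate, 33 had a summit in replicate 1 and 27 in replicate 2, and none had an IDR summit. In the replicate lists the cluster members' share was 22.9 ± 5.89% and that of the other genes of the span 20.3 ± 2.87% (SD, n = 2), which overlap. Pooled candidates numbered 94.6 per Mb in the cluster span, 265 per Mb in the left-hand tercile of chromosome II and 330 per Mb over chromosome II. Among the 1199 protein-coding genes of that tercile that are no members, 45.6% had a pooled candidate. The cluster span thus stood below that tercile as a whole, at members and other genes alike. The values of the tercile include the span and its 148 other genes.

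Other large nematode families also had low shares. F-box A genes, whose products carry another kind of adapter domain for ubiquitin ligases, had a pooled candidate at 50 of 170 (29.4%). C-type lectin genes had one at 69 of 240 (28.8%), and the SRH chemoreceptor genes at 36 of 220 (16.4%). IDR summits lay at 4 F-box A genes, 5 C-type lectin genes and 1 SRH gene. In replicates 1 and 2 the shares were 31.2% and 29.4% for F-box A genes, 36.7% and 33.3% for C-type lectin genes, and 25.5% and 16.8% for SRH genes. The MATH and BATH genes as a whole had 39.7% in the pooled list and in replicate 1 and 32.9% in replicate 2, where C-type lectin genes were slightly higher. The cluster, with 27.1% in the pooled list, fell among the families, and none of these differences was tested.

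**Figure D2:**
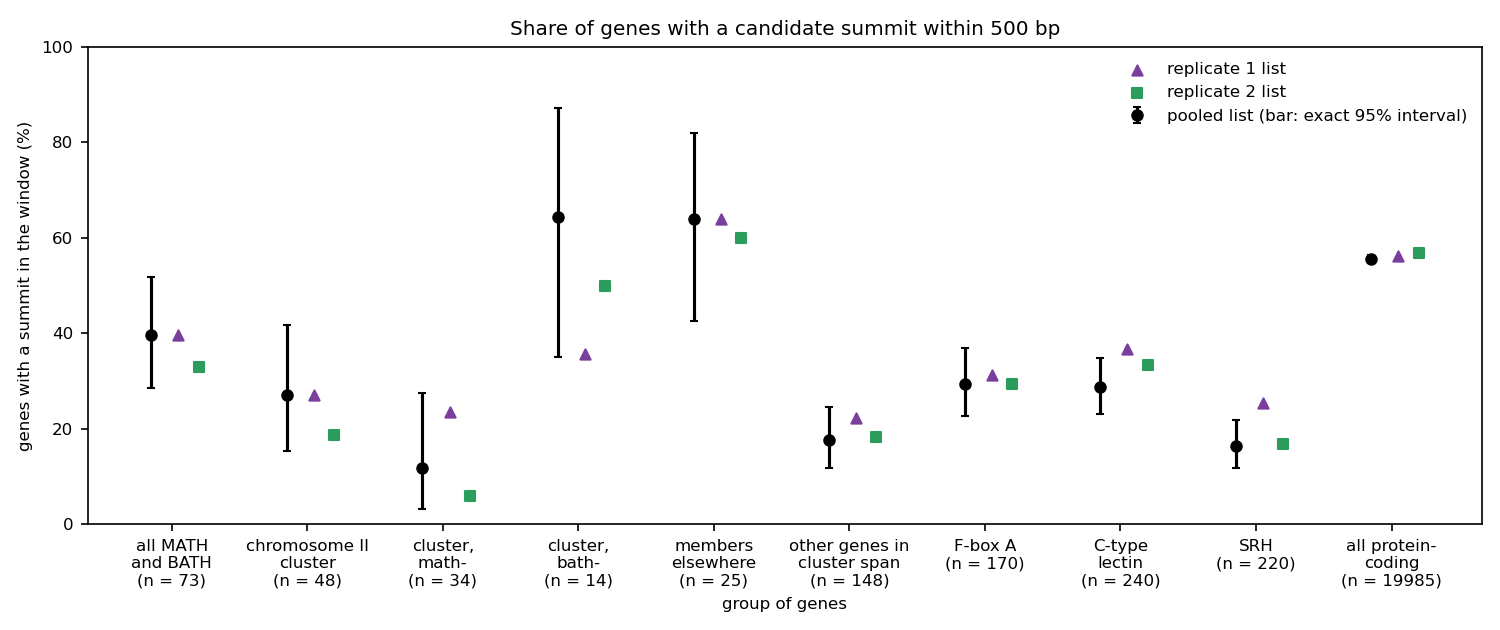
Percentage of genes with a summit within 500 bp, by group of genes, with n below each name. Black points are the pooled list with its exact 95% interval, and purple triangles and green squares are the replicate 1 and replicate 2 lists. The cluster (27.1%) and its math- genes (11.8%) lie far below members elsewhere (64%) and all protein-coding genes (55.7%), and the other genes of the span (17.6%) lie lower than the cluster.

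Over all protein-coding genes, the share with a candidate was higher in longer genes and at higher GC content, and lowest where the sequence was least unique. In the cluster the pooled list ran the other way for length and uniqueness, on small counts, but the replicate lists did not do so for length. The part of these properties in the difference was not tested. Among all protein-coding genes a pooled candidate lay at 43.4% of genes under 1500 bp, 53.3% of genes of 1500 to under 3000 bp and 71.2% of longer ones. In the cluster the counts were 7 of 23, 4 of 15 and 2 of 10, so the share was below that of all genes in each class. In the same classes the cluster's shares were 21.7%, 33.3% and 30% in replicate 1 and 17.4%, 13.3% and 30% in replicate 2. The longest genes were thus above the shortest in both replicate lists. Repeated sequence can remove reads that align in several places. The share of 32-letter words of the window that are found once in the genome had a median of 95% in the cluster, 94.2% at members elsewhere and 99.5% over all protein-coding genes. Where under 80% of words were unique, a pooled candidate lay at 4 of 11 cluster members (36.4%) and at 38.9% of all protein-coding genes. From 80 to under 95% it was 4 of 13 (30.8%) and 58.8%, and from 95% it was 5 of 24 (20.8%) and 56.9%. The cluster's shares in these 3 classes were 27.3%, 46.2% and 16.7% in replicate 1, and 27.3%, 15.4% and 16.7% in replicate 2.

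The GC content of the window had a median of 34.9% in the cluster, 36.8% at members elsewhere and 35.6% over all protein-coding genes. It was 33.5% at the math- genes of the cluster and 36.6% at its bath- genes. Below 33% GC a pooled candidate lay at 3 of 16 cluster members and at 45.6% of all protein-coding genes, from 33 to under 36% at 3 of 14 and 50.6%, and from 36% at 7 of 18 and 63.6%. At members elsewhere the counts in these classes were 1 of 2, 2 of 8 and 13 of 15. From 36% GC, replicate 1 had a summit at 5 of 18 cluster members and 11 of 15 members elsewhere, and replicate 2 at 4 of 18 and 12 of 15. From 33 to under 36% the lists differed in direction, with 3 of 14 in the cluster and 3 of 8 elsewhere in replicate 1, and 4 of 14 and 2 of 8 in replicate 2. In that class the pooled shares were close, 21.4% in the cluster and 25% elsewhere. Pooled summits per kb of window were 0.081 in the cluster and 0.257 elsewhere. The value elsewhere rested on 2 genes, bath-44 with 4 summits and bath-30 with 2. Below 33% the densities were 0.095 and 0.212, and from 36% they were 0.121 and 0.719.

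**Figure D3:**
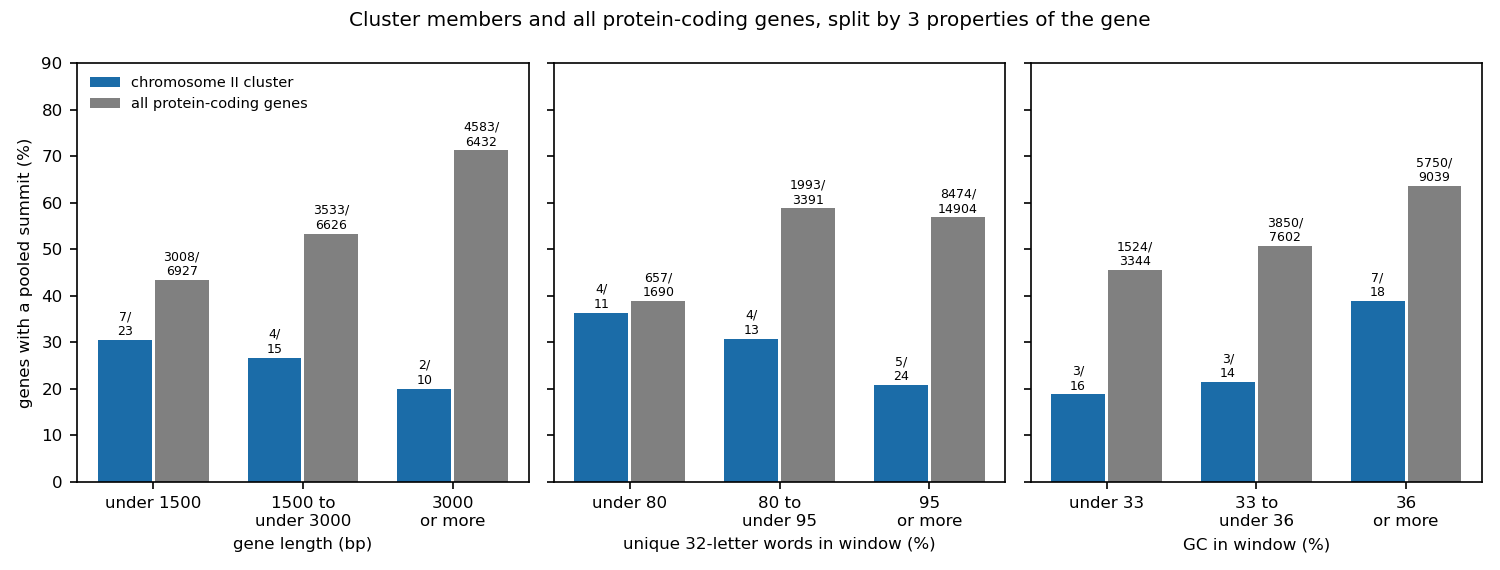
Percentage of genes with a pooled candidate, for cluster members (blue) and all protein-coding genes (grey), in 3 classes each of gene length in bp, unique 32-letter words in the window in percent, and GC in the window in percent, with counts above the bars. The blue bar is below the grey one in all 9 classes, by the smallest margin where fewer than 80% of words were unique (4 of 11 cluster members).

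Values of the replicates given beside a gene are the strongest in its window and need not belong to the same summit. The strongest site of the family was at math-33 (chrV:11113907-11118824, plus strand), which encodes a deubiquitinase of the USP7 type with a MATH domain. Its IDR summit at chrV:11118589 had a pooled signal of 94.4, at or above 97.4% of the pooled list, with strongest values of 27.2 in replicate 1 and 74.6 in replicate 2. The summit lay in the 3′ untranslated exon near the annotated 3′ end, 177 bp past the 3′ end of the converging gene scb-1. A second candidate at chrV:11118800, 24 bp before the 3′ end, had a signal of 45.2. Of its 6 pooled summits, 4 lay further inside the gene, with signals of 16.1 to 29.8, and each replicate list also had 6 summits in the window.

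The other IDR site was at bath-42 (chrIII:8161455-8163383, minus strand). Its summit at chrIII:8161413 lay 42 bp past the 3′ end and 75 bp before the start of inpp-5K, a gene named for an inositol polyphosphate phosphatase, so the site cannot be given to either gene alone. The pooled signal was 88.1, with 31.5 in replicate 1, whose summit was at the same base, and 64.6 in replicate 2, whose summit was at chrIII:8161308. A weaker replicate 2 summit of 14.0 lay nearer, 95 bp away on the other side. The lowest signal in the IDR list was 74.0, and bath-36 stood just below it with 71.6.

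At bath-36 (chrV:15187888-15189588, plus strand) the strongest summit lay 65 bp before the start and also in the window of cyn-7, a cyclophilin gene. Its strongest signals were 22.9 in replicate 1 and 45.0 in replicate 2, and the nearest IDR summit was 1324 bp from the gene. At bath-40, on chromosome I, the strongest of 5 pooled summits lay 271 bp past the 3′ end, with a signal of 61.2 and strongest values of 18.6 in replicate 1, in an intron, and 59.8 in replicate 2, past the 3′ end. These 4 genes were the members with the highest pooled signal.

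A further group had pooled signals between 34.1 and 48.9. At bath-41 (chrIII:6720415-6722258, minus strand) the summit fell on the last base of the gene, inside a coding exon of F37A4.3, with a signal of 48.9. Replicate 1 had 29.4 within 5 bp of it, and the strongest replicate 2 summit, 28.5, lay before the start of the gene. At bath-15 (chrIII:7774677-7776033, minus strand) the signal was 47.2, with 12.2 and 36.4 in replicates 1 and 2, and an IDR summit lay 819 bp outside the gene. The strongest summit of bath-34, on chromosome I, lay 339 bp before its start and 135 bp past the 3′ end of uba-2, which encodes a SUMO-activating enzyme subunit, with a signal of 43.8 and values of 19.3 and 28.8. At bath-44 (chrII:7394955-7397351, plus strand) it lay 10 bp past the 3′ end with 36.5, and the strongest replicate values were 17.9 and 24.9.

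On chromosome II, 7 bath- genes from bath-28 to bath-9 form a second, smaller group at chrII:3343731-3378834. Its 4 leftmost members, bath-28, bath-30, bath-29 and bath-27, had summits in the pooled and both replicate lists, and bath-23, bath-10 and bath-9 had none in any list. The summit at chrII:3345070, with a pooled signal of 34.1, lay 103 bp before the start of bath-28 and 148 bp past the end of bath-30, so both count it. bath-30 had a stronger one, 36.2, 206 bp before its start, with strongest replicate values of 13.7 and 31.97. bath-29, the longest gene of the group with 10424 bp, had 6 pooled summits, as many as math-33, but none above 26.1.

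In the cluster, bath-19 (chrII:2035695-2039388, minus strand) stood apart. Its strongest summit lay in the untranslated exon, 71 bp before the 3′ end, with a pooled signal of 52.8 and values of 19.5 and 36.03 in replicates 1 and 2. The next cluster member, bath-47, had 28.5, no summit in replicate 1 and 20.9 in replicate 2. The others with a pooled candidate had strongest signals from 14.7 at bath-46 to 24.96 at bath-7. Only bath-7, math-49, bath-21, bath-1 and bath-19 had a summit in both replicate lists, and bath-1 had none in the pooled list. These need not be the same site. At bath-21 they lay at chrII:2022938 and chrII:2021494, and at bath-1 in a coding exon and 430 bp past the 3′ end. A pooled summit with one within 100 bp in both lists was found only at bath-7 and bath-19. The 3 members with the lowest strongest signal were bath-46 (14.7), bath-21 (15.8) and bath-31 (16.3), and bath-31 lies outside the cluster.

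Elsewhere, math-46, bath-25, bath-13 and bath-27 had pooled candidates with strongest signals of 24.2, 18.4, 24.1 and 22.4. No pooled candidate lay at bath-35, math-34, bath-23, bath-10, bath-9, bath-38, bath-45, bath-37 and bath-39. Of these 9, bath-37 (8.25) and bath-39 (12.6) had a summit in replicate 1. A strongest pooled summit in the upper tercile of the list by signal was found at 12 members (16.4%), beside 34.4% of all protein-coding genes. These were 2 cluster members and 10 elsewhere. The 11 other than bath-47 also had a summit in both replicate lists. Members in the outer terciles of the autosomes had a pooled candidate at 24 of 66 (36.4%) and no IDR summit, and members in the central terciles at 5 of 7 with 2 IDR summits. For all protein-coding genes the pooled shares were 56.1% in the outer and 60.8% in the central terciles, and the IDR shares 7.84% and 11.0%. All 48 cluster members are among the 66, so this contrast in part repeats that of cluster and elsewhere.

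Among genes that had a pooled candidate, cluster members also had weaker ones. The strongest summit per gene had a median percentile within the pooled list of 30.4 in the cluster and 80.3 elsewhere, beside 77.5 for all protein-coding genes. Over all members with a candidate it was 54.3. Within the replicate 1 list the medians were 27.4 in the cluster and 74.5 elsewhere, beside 71.0 for all protein-coding genes, and within the replicate 2 list 35.8 and 80.4, beside 76.1. The 3 lists gave the same order. Low medians in the pooled list were also found for the other genes of the cluster span (43.2), F-box A genes (42.2), SRH genes (37.9) and C-type lectin genes (59.8).

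**Figure D4:**
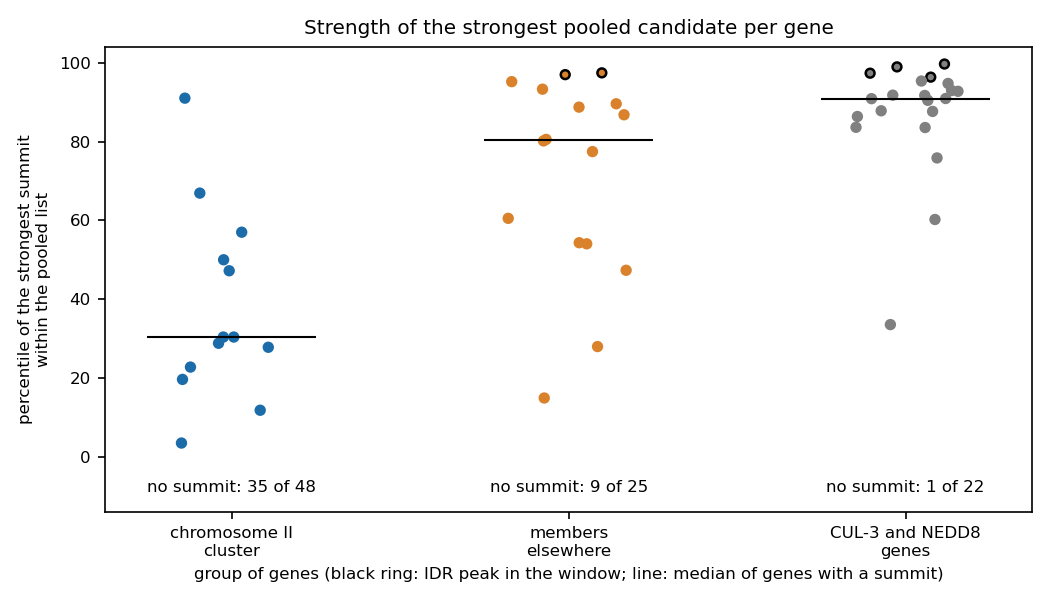
Percentile, within the pooled list, of the strongest summit per gene for cluster members, members elsewhere and the genes of the CUL-3 and NEDD8 list. Each point is a gene, lines are medians of genes with a summit (30.4, 80.3 and 90.9), black rings mark IDR sites, and genes with no summit are counted below. Horizontal scatter has no meaning. Cluster points lie mostly below 60, with bath-19 at 91.0 as the exception near the top.

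The members' windows held 62 distinct pooled summits, 15 in the cluster and 47 elsewhere, or 0.10 and 0.55 summits per kb of window, beside 0.39 per kb for all protein-coding genes. Of the 62, 3 were counted for 2 members each, and 22 also lay in the window of a protein-coding gene that is no member. By signal, 2 were IDR sites, 18 stood in the rest of the upper tercile of the pooled list, 20 in the middle and 22 in the lower tercile. In the cluster 9 of 15 (60%) were in the lower tercile, elsewhere 13 of 47 (27.7%). Near the limits of the terciles, bath-47 stood just inside the upper one with 28.5 and a candidate of bath-41 just below it with 28.2. The lowest signal in the middle tercile was 20.1, at bath-34, and the highest in the lower one 18.9, at the summit shared by bath-24 and math-1.

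The share of candidates that recurred in both replicates was higher in the upper than in the lower tercile. Within 100 bp, most of those in the upper tercile outside the IDR list did not recur, at members as among all nuclear candidates. A summit within 100 bp in both replicate lists was found for 15 of the 62 (24.2%, exact 95% interval 14.2 to 36.7%), beside 22.7% of all nuclear pooled candidates. By strength the count was 2 of 2 IDR sites, 7 of 18 in the rest of the upper tercile (38.9%), 5 of 20 in the middle (25%) and 1 of 22 in the lower one (4.55%). The same shares over all nuclear candidates were 88.0%, 47.0%, 14.0% and 1.73%. These counts depend on the distance allowed, and with 250 bp the share over the 62 was 41.9%. In the upper tercile, the candidate at chrII:3345070 lay 6 bp from a replicate 1 summit and 116 bp from a replicate 2 summit. That at chrV:15188580 lay 528 bp and 4 bp away. In the cluster 2 of 15 candidates (13.3%) recurred in this way, against 13 of 47 elsewhere (27.7%). In replicate 1 alone, a summit within 100 bp was found for 50%, 45% and 40.9% of the upper, middle and lower terciles, the upper one without IDR sites, and in replicate 2 for 83.3%, 70% and 31.8%. IDR sites were kept for recurring, and the pooled reads are those of the replicates, so this recurrence describes the sites and is no independent check of them.

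**Figure D5:**
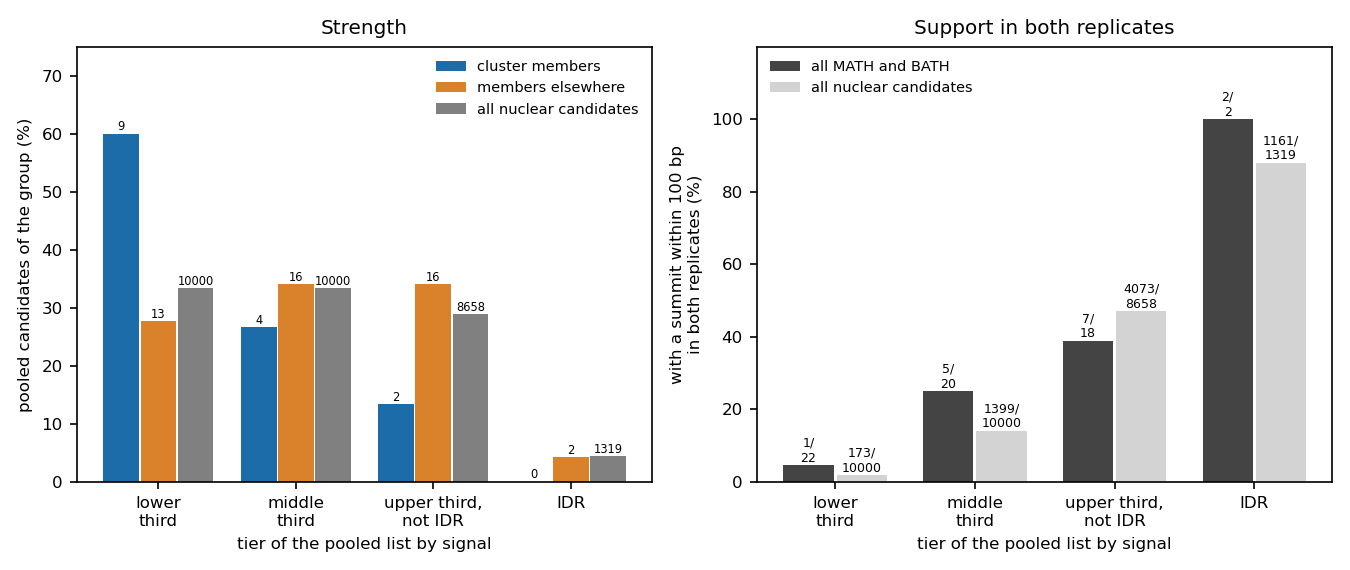
Left, percentage of each group's pooled candidates by tercile of signal and IDR, with counts above the bars, for cluster members (blue), members elsewhere (orange) and all nuclear candidates (grey). Right, percentage of candidates with a summit within 100 bp in both replicate lists, for all members (dark) and all nuclear candidates (light). Cluster candidates are mostly in the lower tercile (9 of 15), and recurrence climbs from 1 of 22 in the lower tercile to 2 of 2 at IDR sites.

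The position of the summits relative to the gene was much like that at other genes. Of 65 pairs of a member and a pooled summit, 15.4% lay before the start, 30.8% in coding exons, 9.23% in untranslated exons, 21.5% in introns and 23.1% past the 3′ end. Over 33110 such pairs for all protein-coding genes the shares were 13.5%, 27.3%, 8.29%, 30.3% and 20.6%. Introns were the class that was lower at members. Both IDR sites lay at 3′ ends, at math-33 and bath-42, as did the strongest summits of bath-40, bath-19, bath-41 and bath-44. The rest of the 12 members with the highest pooled signal differed. The strongest summits of bath-36, bath-34, bath-30, bath-28 and bath-47 lay before the start, and that of bath-15 in a coding exon. The place of the strongest summit was not counted over all genes.

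A list of genes around CUL-3 had pooled candidates at nearly all of its members. It took 22 genes of CUL-3 ligases and of NEDD8, the ubiquitin-like modifier that activates cullins, with the COP9 signalosome, which removes NEDD8, kelch-type BTB adapters, and mel-26 with its substrate. A pooled candidate lay at 21 of the 22, and so did a summit in replicate 1 and in replicate 2, beside 55.7%, 56.3% and 56.9% of all protein-coding genes. rbx-2, a RING subunit gene, had none in any list. The median percentile of their strongest pooled summit was 90.9, beside 77.5 for all protein-coding genes with one. IDR summits lay at 4 of them, beside 8.23% of all protein-coding genes, and the strongest summit of each of the 4 lay past the 3′ end. mel-26, a MATH-BTB adapter of CUL-3 without a family symbol, had a pooled signal of 131, with 40.7 in replicate 1 and 92.0 in replicate 2, 14 bp past its 3′ end. mei-2, a katanin subunit gene, had 204, csn-5, the catalytic subunit of the signalosome, 93.3, and cand-1, an exchange factor of cullin ligases, 81.0. cul-3 itself had a strongest candidate of 45.5, 131 bp past its 3′ end, and rbx-1, the RING subunit gene, one of 59.7. This list was chosen with earlier results known and its genes differ from the members in more than function, so both sets of shares are given side by side only.

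Reads from near-identical copies could be split or lost in alignment, so similarity between members was measured over coding sequence. Whole coding sequences were aligned end to end. No value for unrelated sequences was measured, so the lower identities need not mean close copies. The identity of each member to its closest relative in the family had a median of 73.8% in the cluster and 63.0% elsewhere. It was 63.9% for members with a pooled candidate and 72.8% for those without. This contrast in part repeats that of cluster and elsewhere. Uniqueness of the window went the other way, with less unique windows at members that had a candidate. The median share of unique words was 93.15% with a pooled candidate and 95.71% without. Within the cluster it was 93.15% and 95.53%, and elsewhere 90.67% and 98.64%. Whether lost reads account for missing candidates was not tested. The closest pair, bath-29 and bath-30 with 94.8% over 942 coding bases each, had candidates in the windows of both genes. Those of bath-30 lay outside the gene, 148 bp past its 3′ end and 206 bp before its start. The strongest of bath-29 lay in an intron. For bath-4 and bath-3 (93.2%) and for math-49 and math-8 (88.3%), the first gene of each pair had one and the second had none. How such reads were treated is not stated, and values for these pairs are uncertain to that extent. The first 60 coding bases of bath-29 (chromosome II, plus strand) and bath-30 (chromosome II, minus strand) are given as an example of 2 copies side by side, with capitals at the 8 mismatches, which is less alike than the whole coding sequence.
bath-29: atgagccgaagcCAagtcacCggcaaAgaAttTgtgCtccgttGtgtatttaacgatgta
bath-30: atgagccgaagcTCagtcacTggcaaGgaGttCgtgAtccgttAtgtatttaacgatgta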

How the data were processed

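The ChIP-seq lists cover 2 biological replicates of 1 group, numbered as in the labels. The deposited signal values are the authors' score of each site against a control alignment, per the README deposited with the lists, and sites were called for each replicate and for the pooled reads, with IDR applied to the pooled list. The aligner, caller, versions, thresholds and read depth were not given in the sources used here. Lists on build ce11 were used and checked against chromosome lengths of WBcel235, and lists on ce10 were not used here.

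Genes came from the Ensembl 115 annotation and sequences from the RefSeq genome of WBcel235. A gene's window reached 500 bp beyond each end, positions count from 1, and a site belonged to every window that held its summit. Percentiles give the share of a list with a signal at or below that of the site. Summits within 100 bp in both replicate lists counted as recurring. Upper, middle and lower terciles divide the pooled list by signal. Uniqueness is the share of 32-letter words of the window found once in the genome on either strand. Shares have exact (Clopper-Pearson) 95% intervals.

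Named members are those with an IDR summit, the 12 with the highest pooled signal, all members outside the cluster, the 3 with the most summits, those in all lists with a summit in the upper tercile, and the 3 lowest. Others in the cluster, its gaps, the sequence examples and the closest pairs were named after their values were seen, as were cul-3, rbx-1 and rbx-2. Members and lists were chosen with earlier results of these data known, and no test was made. Window size, placement by interval, list length, leaving out a replicate, cluster limits and recurrence distance were varied. Counting was tested on simulated data. Python 3.11.15, pandas 2.3.3, NumPy 2.4.6, SciPy 1.17.1 and Biopython 1.88 were used.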

Additional observations from a re-analysis of the deposited data

How the results depend on the processing

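The lower share of the cluster held in every setting tried. It was -36.9 percentage points as reported, -29.2 with the gene body only, -40.8 with 1000 bp on both sides, -45.8 with the upper 50% of the pooled list by signal, -31.9 with chains of at most 100 kb and -42.2 with all members on chromosome II against the rest. Leaving out either replicate gave -41.2 to -36.9. The 29 members with a pooled candidate became 16 with the upper 50% of that list, and 24 to 29 without a replicate. The 2 members with an IDR summit became 1 (math-33) with the gene body only and 0 with the upper 50% of the IDR list. With 1000 bp on both sides of the gene, bath-15 also had an IDR summit. IDR cannot be run on 1 replicate, so the 1341 strongest candidates of the other replicate's list, not filtered by IDR, stood in for it. These gave 3 members each time: math-33 and bath-42, with bath-40 in the replicate 2 list and bath-41 in the replicate 1 list. The median percentile of 54.3 became 58.6 to 63.5 within the list of a replicate alone. The recurring share of 24.2% became 9.68% with 50 bp between summits and 41.9% with 250 bp. Of 41 alternative values, 28 stayed near the reported one and 13 did not, where near means within 1.5 times a count, within the SD between replicates for the difference and the median, and within the exact 95% interval for the recurring share. The cause was not tested. Leaving out a replicate gave no value for results counted over both replicate lists. No paired analysis was possible because there was 1 group. Depth, which is unknown, limits what a missing summit shows.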

Other observations

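RefSeq names 20 further or overlapping math- and bath- loci pseudogenes, 1 of which, bath-23, is protein-coding in the annotation used for the members. The other 19, 18 of them on chromosome II, were counted in the same window. None had an IDR summit, beside 8.23% of all protein-coding genes. Replicate 1 had a summit at 3 and replicate 2 at 5, beside 56.3% and 56.9% of all protein-coding genes. No share over pseudogenes at large was counted. A pooled candidate lay at 4 of the 19, beside 55.7% of all protein-coding genes. The 4 were bath-12, with strongest signals of 39.7 in the pooled list, 15.2 in replicate 1 and 34.5 in replicate 2; bath-22, with 36.9, 10.9 and 29.1; bath-14, with 34.3, 7.50 and 26.4; and math-2, with 19.6 in the pooled list, 14.8 in replicate 2 and no summit in replicate 1. The pseudogenes bath-22 and bath-14 lie within the span of the cluster and had stronger pooled candidates than every protein-coding member of the cluster except bath-19.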
